A study of Mus musculus with 12 samples.

Results

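Cation channels are membrane proteins that let potassium, sodium or calcium ions cross the cell membrane, and their opening sets the resting potential and carries the action potential of nerve and muscle cells. A channel is built from pore-forming subunits and, in many families, from auxiliary subunits that alter its gating or bring it to the cell surface. Many of these genes are long, because their exons are spread over large introns, and most are known for their roles in nerve, heart, muscle or gland rather than in embryonic stem cells. The genes examined here were the 136 protein-coding genes on chromosomes 1 to 19 whose symbols begin with Kcn (potassium), Cacn (calcium), Asic (acid-sensing) or Scn with a number and a or b (voltage-gated sodium), out of 20560 protein-coding genes used. Membership followed the symbol, but the set was proposed with earlier results of these data known. Cacna1f, Kcnd1 and Kcne1l, which lie on the X chromosome, were not analysed here.

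The measurement was a list of 4973 genomic regions at which FLAG-tagged Zscan4c, a zinc finger protein of the 2-cell embryo and of a minor fraction of embryonic stem cells, was found by chromatin immunoprecipitation and sequencing. The cells were J1, a mouse embryonic stem cell line labelled as strain 12910la. Their genotype is labelled as Zscan4 overexpression, from a Zscan4c coding sequence in a vector named pCMV-FLAG, so the transgene was driven from a vector and not from the gene's own locus. The transfected vector, 1000 ng, is named pCMV-tag2 in the labels. G418 selection (500 ug/ml) lasted 10 days, and the cells used were monoclonal, so clonal differences cannot be told apart from the overexpression. The list was assigned, from the names given to it and its regions, to 1 of 12 labelled libraries (1 sample, no replicate). This library, the FLAG immunoprecipitation of these overexpressing cells, is the only Zscan4 immunoprecipitation among the labels. The input and histone mark libraries, including those of wild-type cells, were not analysed here. No test between samples was therefore possible, and the shares below are descriptions with intervals that cover counting error only. The files give no read counts, so sequencing depth is unknown. Only regions that passed the authors' peak calling are listed, and 32 of the 5005 region numbers are not in the list used here, so the absence of a region from a gene does not show absence of binding. Each region has a score from the authors, a whole number with a median of 33. Its scale is not stated, and it served only to rank regions within the list.

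Of the 136 channel genes, 21 (15.4%, 95% Wilson interval 10.3 to 22.5%) held at least 1 FLAG-Zscan4 region with its midpoint in the gene body or within 10 kb of it, and 115 held none. Over all protein-coding genes on the same chromosomes the share was 12.2%. The channel genes were longer, with a median span of 44.7 kb against 17.4 kb for the other protein-coding genes, and the share of genes with a region grew with span. Compared with genes of like span, the channel genes held regions at a somewhat lower rate: the share of other genes in each of 5 span classes would give 27.3 channel genes with a region, and 21 were counted, a ratio of 0.769. The Wilson interval of the channel genes' share puts that ratio between 0.514 and 1.12, so with 10 kb on either side the deficit was within counting error. With only the 1252 regions of highest score, 10 channel genes held one, beside 7.22 from the span classes, a ratio of 1.38. No interval was computed for that ratio, which rests on few genes, so a change of direction cannot be read from it. In the gene body alone 14 genes held a region (10.3%), beside 8.01% of all protein-coding genes of any span and 21.9 genes from those of like span, a ratio of 0.639.

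Most of the deficit lay in the classes of 100 kb and more. Among the 22 channel genes of 300 kb or more, 7 held a region (31.8%, 95% Wilson interval 16.4 to 52.7%), beside 44.2% of the other protein-coding genes of that span. Of the 22 genes of 100 to 300 kb, 4 held one (18.2%, interval 7.31 to 38.5%), beside 31.4%. Of the 39 genes of 30 to 100 kb it was 6 (15.4%), beside 17.7%. The classes of 10 to 30 kb and under 10 kb held 2 genes each, of 32 (6.25%, beside 8.81%) and of 21 (9.52%, beside 4.48%). In every class the Wilson interval of the channel genes included the share of the other genes.

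**Figure D1:**
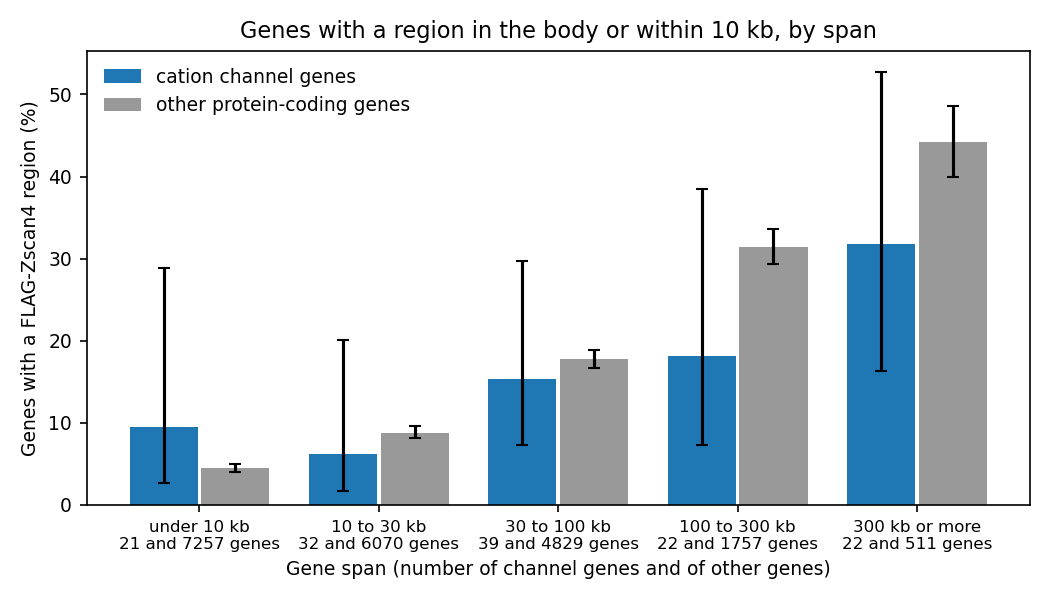
Share of genes with a FLAG-Zscan4 region in the body or within 10 kb (y axis, percent) in 5 classes of gene span (x axis, with the number of channel genes and of other genes). Blue bars are cation channel genes, grey bars other protein-coding genes, and error bars 95% Wilson intervals; both shares are highest in genes of 300 kb or more, at 31.8% and 44.2%.

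Counted per length, the number was also lower, but whether it lay within counting error depended on the comparison. The windows of the 136 genes, bodies with 10 kb on either side, covered 20.7 Mb and held 31 regions, none of them counted for more than 1 channel gene. The 95% exact Poisson interval of their density was 1.02 to 2.13 regions per Mb, below the 2.24 per Mb (2.16 to 2.33) in the windows of the other protein-coding genes. These densities were not matched for gene span. At the region density of each chromosome over its whole length, the same windows would hold 40.9 regions, against 31 counted (exact Poisson interval 21.1 to 44.0, which includes 40.9). Regions cluster along the genome, so Poisson intervals are too narrow.

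The regions that did lie at channel genes included several of high score. Of the 31, 6 had a score of at least 100 (19.4%, 95% Wilson interval 9.19 to 36.3%), beside 212 of 2688 regions at other protein-coding genes only (7.89%, interval 6.93 to 8.97%) and 549 of all 4973 listed regions (11.0%), a share inside the interval of the channel genes. The 6 belonged to 6 different genes, Asic4, Kcnab1, Asic1, Kcnh1, Kcnip4 and Kcnc1, and those of Kcnab1 and Asic1 also lay in the body of another gene. Of the 31, 4 were wider than 1000 bp (12.9%, interval 5.13 to 28.9%), beside 2.79% (interval 2.23 to 3.48%) at the other genes and 3.86% of all listed regions. The bulk of the regions differed less, with a median score of 35 (interquartile range 23 to 70.5) beside 31 (21 to 50), and a median width of 317 bp beside 294 bp. For each gene with a region, the median of its highest score was 49 over the 21 channel genes and 34 over the other protein-coding genes. The 95% interval of the channel genes' median was 29 to 111, which includes 34. A gene with more regions has more scores to take the highest from, and these medians were not matched for number of regions or span. No test was made of these differences, and the regions were not set against input signal or known problem sites here.

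**Figure D2:**
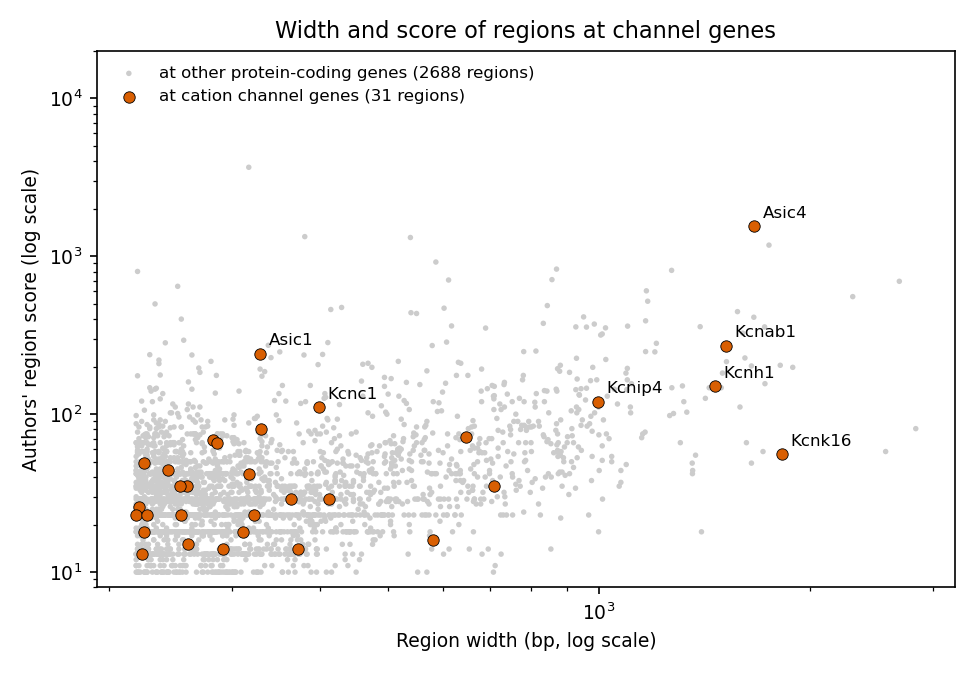
Width in bp (x axis, log scale) and authors' score (y axis, log scale) of each FLAG-Zscan4 region at cation channel genes (orange, 31 regions) and at other protein-coding genes only (grey, 2688 regions). The named points have a score of 100 or more or are wider than 1000 bp; Asic4 stands highest at 1543, and Kcnk16 is the widest at 1826 bp.

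The acid-sensing channels are sodium channels that open when the outside of the cell turns acid. Of 5 Asic genes 3 held a region (60.0%, 95% Wilson interval 23.1 to 88.2%), where the span classes would give 0.930. That number counts Asic2, of 1088 kb, at the share of all other genes of 300 kb or more. The region of 1 of the 3, Asic1, lay inside another gene. Asic4, which encodes a subunit not known to open with acid by itself, held the highest score of all channel genes and the 18th highest of the whole list, 1543, at chr1:75460562-75462228. This region was 1667 bp wide and lay 45.7% along the body from its lower-numbered end, 10.9 kb from the nearer gene end. A weaker region of Asic4 (chr1:75466754-75467064, 311 bp, score 18) lay within 10 kb of it, at 68.8% of the body. Asic4 spans only 23.8 kb, and with its flanks would hold 0.112 regions at the density of chromosome 1. Asic1, the main acid sensor of central neurons, had a region of score 242 (chr15:99707999-99708327, 329 bp) at 7.03 kb outside the gene and 15.9 kb downstream of its listed start. The midpoint of that region lay in the body of Smarcd1, a gene for a subunit of a chromatin remodelling complex, so it cannot be assigned to Asic1 by position. Asic2, at 1088 kb among the longest of the set, held 1 region of score 80 near the middle of its body (chr11:81431007-81431336, 330 bp, at 50.6%), fewer than the 2.21 given by the density of its chromosome. Asic3 and Asic5 had none, with the nearest region at 195 kb and 445 kb.

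The voltage-gated sodium channels carry the upstroke of the action potential. Of the 10 pore-forming Scn genes 1 held a region (10.0%, 95% Wilson interval 1.79 to 40.4%), beside 2.73 from the span classes, which is within that interval. Of the 4 beta subunit genes none did, beside 0.353. Scn11a, a channel of pain-sensing neurons, had a region of score 44 at 6.80 kb outside the gene (chr9:119746846-119747088, 243 bp), in the long non-coding RNA gene Gm33701 and 78.5 kb downstream of the Scn11a start. Its neighbour Scn10a, also a channel gene of sensory neurons, had none in the window. Its nearest region, at 27.6 kb, was this same region of Scn11a. The other large group of sodium channel genes, on chromosome 2, was farther from any listed region: the nearest lay 1523 kb from Scn3a, 1323 kb from Scn2a, 649 kb from Scn1a, 455 kb from Scn9a and 305 kb from Scn7a. These 5 genes are close neighbours, so their distances are not independent values. Scn8a, the longest sodium channel gene at 176 kb, was 622 kb from the nearest region.

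Among calcium channels, 5 of 25 genes held a region, beside 6.66 from the span classes, and all 5 held it in the body. The pore-forming Cacna1 genes, which decide the type of calcium current, held regions in 1 of 9 (2.93 from the span classes). That gene was Cacna1e, of the R-type current, with a narrow region of score 23 (chr1:154600651-154600869, 219 bp, 125 kb downstream of the start). Cacna1c, the L-type channel of heart and brain and the longest calcium channel gene without a region (610 kb), and Cacna1d, a related L-type channel (451 kb), had their nearest regions at 79.2 kb and 72.1 kb. The region nearest to Cacna1c is the one counted at Cacna2d4. The Cacna2d genes, whose products help to bring the pore to the membrane, held regions in 2 of 4: Cacna2d3 with score 18 (chr14:29405280-29405504, 225 bp, 316 kb downstream of the start) and Cacna2d4 with score 26 (chr6:119276433-119276653, 221 bp, 40.0 kb from the nearer gene end). Cacna2d1, at 440 kb, had none within 281 kb. Of the 4 Cacnb genes, which encode cytoplasmic subunits, none held a region. Of the 8 Cacng genes, several of which encode regulators of AMPA-type glutamate receptors, 2 held one. Cacng2, the gene for stargazin, had a region of score 66 at 50.4% of its body (chr15:78056500-78056785, 286 bp, 62.6 kb downstream of the start). Cacng4 had a pair of narrow, weak regions close together (chr11:107784248-107784474, 227 bp, score 23, and chr11:107779879-107780101, 223 bp, score 13), at 83.4% and 76.4% of its body. All 6 regions of calcium channel genes were under 300 bp wide, and only that of Cacng2 scored above the list's median of 33. The median width of all listed regions was 310 bp, so narrow regions are common in the list, and 6 regions are few.

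Potassium channels set the resting potential and end the action potential, and they made up most of the set: 12 of 92 genes held a region (13.0%, 95% Wilson interval 7.62 to 21.4%), beside 16.6 from the span classes. The classical voltage-gated pore genes Kcna, Kcnb, Kcnc and Kcnd held a region at 1 of 16 (2.75 from the span classes). This was Kcnc1, a fast-closing channel of rapidly firing neurons, whose region of score 111 (chr7:46387423-46387821, 399 bp) lay 8.60 kb outside the gene, at -8.85 kb from its start (negative values are upstream). The muscle regulator gene Myod1 also lay within 10 kb of it, so the region is placed between these genes. Kcnd2, the longest of these genes at 514 kb, had its nearest region at 36.9 kb. Of the 10 Kcnf, Kcng, Kcns and Kcnv genes, whose products form no channel alone and modify others, Kcns2 held 2 regions, on either side of a short gene of 6.05 kb. They were weak, with score 29 at 1.41 kb outside the gene (chr15:34844613-34845024, 412 bp) and score 23 at 8.40 kb on the other side (chr15:34828792-34829113, 322 bp), the latter in the long non-coding RNA gene Gm32970.

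Kcnh1, the ether-a-go-go channel gene of 321 kb, was the only 1 of 8 Kcnh genes with a region and had 3, all within the first 41.5% of its body. The strongest had score 150 and was 1465 bp wide (chr1:192230200-192231664), 40.2 kb downstream of the start. The others had scores of 29 (chr1:192322207-192322570, 364 bp, 132 kb downstream) and 23 (chr1:192202326-192202579, 254 bp, 11.7 kb downstream). The density of chromosome 1 would give 0.868 regions. Of 5 Kcnq genes, whose channels stabilise excitable cells, 1 held a region: Kcnq1, a heart and epithelial channel gene in an imprinted domain, had score 42 at 77.7% of its body (chr7:143355594-143355910, 317 bp), with no other annotated gene within 10 kb. Kcnq5, at 564 kb, had none within 95.7 kb. None of the 4 Kcnma, Kcnt and Kcnu genes held a region, among them the calcium-activated channel gene Kcnma1, at 713 kb the longest channel gene without one (1.53 regions at the density of its chromosome, nearest region at 319 kb). None of the 4 Kcnn genes, also of calcium-activated channels, held one either.

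The Kcnj genes encode inward rectifiers, which pass potassium more easily into the cell than out, and 2 of 15 held a region (2.05 from the span classes). Kcnj6, a channel opened by G proteins, had 3 weak regions. A pair of them lay outside its end, at 3.55 kb with score 35 (chr16:94741306-94741558, 253 bp) and at 6.37 kb with score 16 (chr16:94738320-94738900, 581 bp), and the remaining one lay in the body with score 14 (chr16:94798687-94799059, 373 bp). Kcnj5, whose product pairs with another rectifier in the heart atrium, had a region of score 35 at 6.78 kb outside the gene (chr9:32307577-32308286, 710 bp). Kcnj2 and Kcnj16, neighbours on chromosome 11, lay farthest of all from a region, at 1621 kb and 1523 kb. The Kcnk genes encode leak channels with tandem pore domains, and 2 of 14 held regions (2.05 from the span classes), both only in the flank. The region of Kcnk3 (chr5:30582615-30582896, 282 bp, score 69) was 5.42 kb outside the gene, in the long non-coding RNA gene Gm9899. Kcnk16, a channel gene of the pancreatic islet, had a pair of regions in the pseudogene Gm2048, at 6.03 kb (chr14:20254435-20256260, score 56) and 7.29 kb (chr14:20253953-20254212, 260 bp, score 15) from the channel gene. The first of them was 1826 bp wide, the widest of the set.

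The auxiliary subunits of potassium channels held regions in 4 of 16 genes (2.84 from the span classes), and all 4 in the body. Kcnab1, a cytoplasmic beta subunit that speeds the closing of voltage-gated channels, had the second highest score of the set, 272, in a region 1521 bp wide (chr3:65195844-65197364). It lay 57.7% along the body of 429 kb, 8.50 kb downstream of the nearest of 3 listed starts and 247 kb downstream of the first, and the long non-coding RNA gene A330015K06Rik also covers this place. Kcnip4, a calcium-binding partner of A-type channels and at 1136 kb the longest gene of the set, held 3 regions with scores of 120 (chr5:48637459-48638457, 999 bp), 72 (chr5:48732951-48733597, 647 bp) and 35 (chr5:49093232-49093490, 259 bp), beside 2.32 given by the density of its chromosome. Of the beta subunits of the calcium-activated channel, Kcnmb4 had a region of score 49 at 10.5 kb downstream of its start (chr10:116462916-116463140, 225 bp). Kcnmb2 had one of score 14 (chr3:32120065-32120355, 291 bp, 218 kb downstream).

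**Figure D3:**
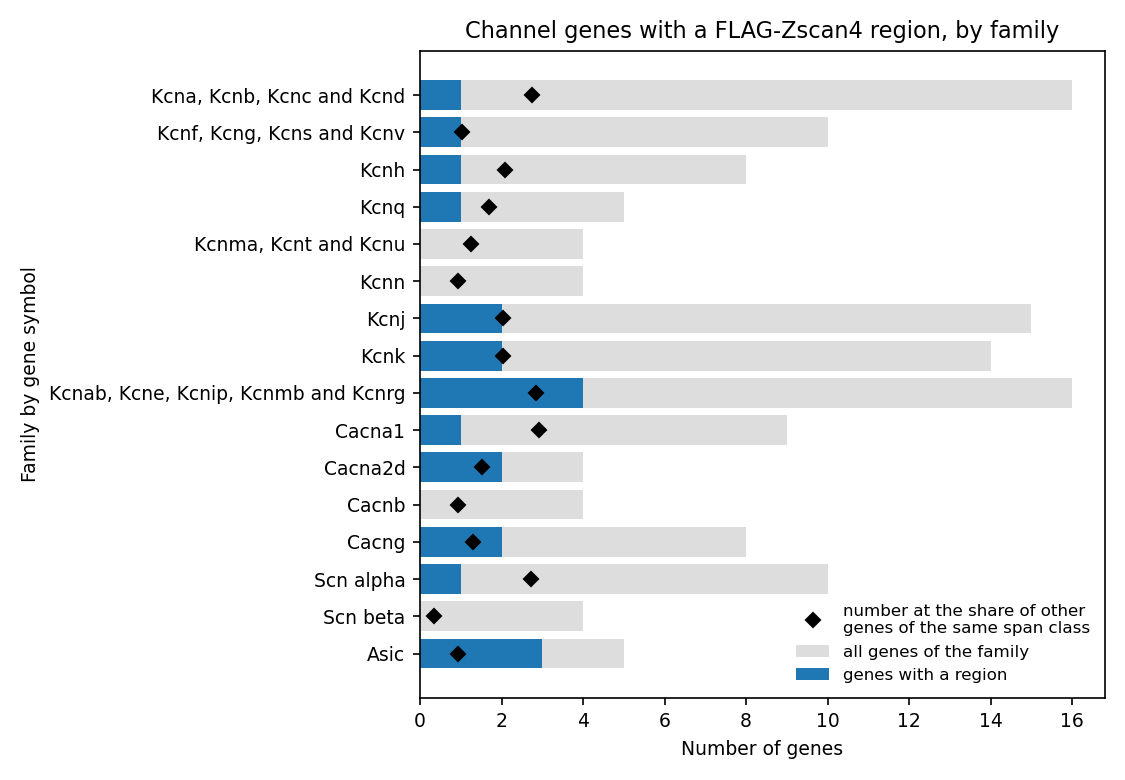
Number of genes (x axis) in each family by gene symbol (y axis): grey bars are all genes of the family, blue bars those with a FLAG-Zscan4 region in the body or within 10 kb, and black diamonds the number at the share of other protein-coding genes of the same span class. The Asic bar reaches 3 of 5 with the diamond at 0.930, while Cacna1 reaches 1 of 9 and Scn alpha 1 of 10 with their diamonds beyond the ends of the blue bars.

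Across these families, auxiliary and pore-forming genes differed in their counts. Auxiliary subunit genes of all channel types held regions in 8 of 36 (22.2%, 95% Wilson interval 11.7 to 38.1%), beside 6.92 from the span classes, and every one of the 8 in the body. Pore-forming genes held them in 12 of 90 (13.3%, interval 7.79 to 21.9%), beside 19.4, and 6 of the 12 in the body. Of all 2515 protein-coding genes with a region on these chromosomes, 1647 held one in the body, and of the 21 channel genes 14 did. The intervals of auxiliary and pore-forming genes overlap, and neither difference was tested. Roles were set by symbol, so the 8 include Cacng2 and Cacng4, of a family with several regulators of AMPA-type glutamate receptors. Families of 4 to 16 genes are too small for their order to be read.

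Within the 21 genes with a region, 14 had 1, 4 had 2 and 3 had 3, so that 33.3% (95% Wilson interval 17.2 to 54.6%) had more than 1, beside 16.9% of the other protein-coding genes with a region. These shares were not matched for span, and the channel genes with a region were longer, with a median of 116 kb against 52.4 kb. Of the 31 regions, 20 lay in a body and 11 in a flank, and 7 had their midpoint in the body of another gene. The same counts for regions at other genes are not given here, so these describe the channel genes only. The 115 channel genes without a region had a median span of 38.9 kb. The 20 body regions lay between 7.43 kb (Asic4) and 537 kb (Asic2) from the nearer gene end.

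**Figure D4:**
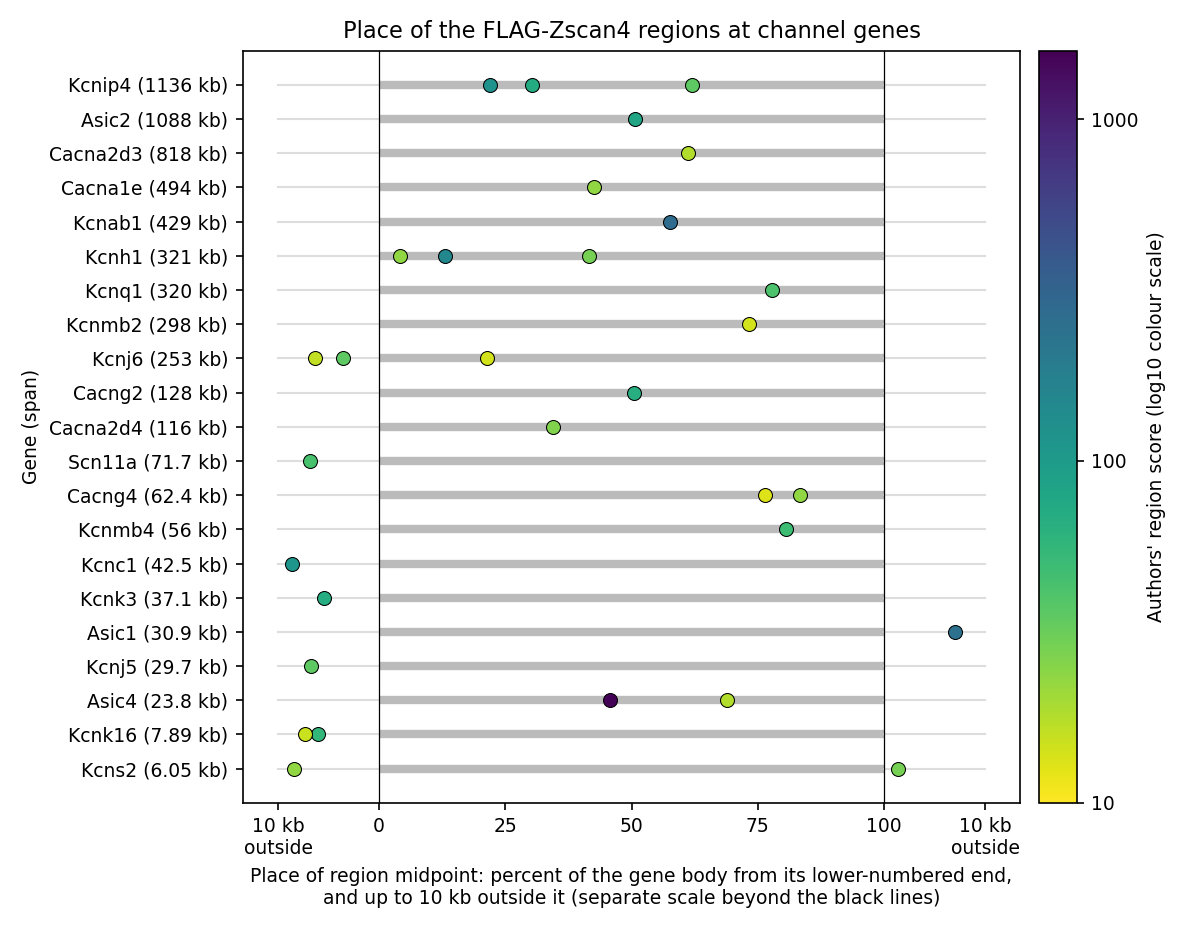
Place of each of the 31 region midpoints along the 21 channel genes with a region (y axis, sorted by span): x is the percent of the body from its lower-numbered end, and up to 10 kb outside on a separate scale beyond the black lines. Colour gives the authors' score on a log scale; 20 points lie in a body and 11 in a flank, and the darkest is that of Asic4.

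Start sites were listed for 101 of the 136 genes, with strand, as 138 windows of 250 bases before to 50 after the start (RefSeq, GRCm38.p6). None of the 138 windows overlapped a FLAG-Zscan4 region, and over all genes on these chromosomes 43 of 31396 windows did (0.137%). A region within 10 kb of a start was listed for 2 of the 101 genes (1.98%, 95% Wilson interval 0.545 to 6.93%), beside 4.33% of all protein-coding genes with a listed start. These were Kcnab1 and Kcnc1. No start was listed for Asic4, Kcns2, Kcnk3, Cacng4, Cacna2d4 and Kcnq1, which hold regions, so they are not among the 101. Those of Kcns2 lay 1.41 kb and 8.40 kb outside opposite ends of the gene, so either end had a region within 10 kb. The median distance from a gene's nearest start to the nearest region was 185 kb for channel genes and 156 kb for the other protein-coding genes.

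The windows of the 4 genes whose region lay nearest to a listed start are printed to show what kind of start these regions stand beside, 5′ to 3′ on the strand of the gene. They come from chr3:65187853-65188152 (plus strand, the start of Kcnab1 nearest to its region), chr7:46396218-46396517 (plus, Kcnc1), chr10:116473474-116473773 (minus, Kcnmb4) and chr1:192190527-192190826 (plus, Kcnh1). Capitals mark matches to TGCACAC, a word linked to Zscan4 proteins in binding assays, or to the repeat CACACACA, each searched on both strands; the words share the letters CACAC and can overlap.
Kcnab1: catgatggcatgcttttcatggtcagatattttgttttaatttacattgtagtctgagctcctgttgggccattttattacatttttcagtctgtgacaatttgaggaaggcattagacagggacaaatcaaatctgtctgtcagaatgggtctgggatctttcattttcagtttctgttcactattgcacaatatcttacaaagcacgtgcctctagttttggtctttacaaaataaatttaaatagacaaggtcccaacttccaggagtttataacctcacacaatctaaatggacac
Kcnc1: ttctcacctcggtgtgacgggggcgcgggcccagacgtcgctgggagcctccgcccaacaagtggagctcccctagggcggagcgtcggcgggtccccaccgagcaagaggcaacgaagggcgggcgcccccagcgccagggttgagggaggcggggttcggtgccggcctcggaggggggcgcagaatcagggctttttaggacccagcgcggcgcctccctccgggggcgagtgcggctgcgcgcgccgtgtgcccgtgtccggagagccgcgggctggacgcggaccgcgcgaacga
Kcnmb4: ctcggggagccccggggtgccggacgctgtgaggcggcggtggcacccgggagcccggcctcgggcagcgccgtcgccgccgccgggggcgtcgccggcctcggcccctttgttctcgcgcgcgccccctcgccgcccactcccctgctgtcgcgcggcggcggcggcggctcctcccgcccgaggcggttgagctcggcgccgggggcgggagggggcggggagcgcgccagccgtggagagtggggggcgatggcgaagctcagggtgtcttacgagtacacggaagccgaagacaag
Kcnh1: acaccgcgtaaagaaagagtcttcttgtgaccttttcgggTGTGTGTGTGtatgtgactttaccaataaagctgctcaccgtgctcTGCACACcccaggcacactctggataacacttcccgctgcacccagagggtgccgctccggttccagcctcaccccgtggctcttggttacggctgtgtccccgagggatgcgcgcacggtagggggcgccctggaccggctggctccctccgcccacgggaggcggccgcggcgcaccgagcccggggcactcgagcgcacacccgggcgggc

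The starts of Kcnc1, Kcnmb4 and Kcnh1 were rich in G and C, at 74.7%, 79.0% and 66.0% of bases with 41, 48 and 27 CG dinucleotides, while that of Kcnab1 had 36.7% and 1. The median over all windows was 53.0% and 7, and over the windows of channel genes 58.2% and 9. Of the 4 windows, that of Kcnh1 held TGCACAC, 164 bases before the start, and a CA repeat read on the opposite strand. TGCACAC was in 8 of 138 windows of channel genes (5.80%), beside 4.40% of all windows. It was in 3 of the 20 windows of channel genes with a region (15.0%), those of Kcnh1, Kcnk16 and another start of Kcnab1. CACACACA was in 5 of the 138 (3.62%) and in 1 of those 20 (5.00%), beside 4.14% of all. Shares of 20 windows are uncertain, and no difference between them was tested. These matches describe the letters of the start windows, not of the regions, whose sequence was not used here.

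By chromosome, the channel genes with a region lay on 11 of the 18 chromosomes that carry any. Chromosome 2 carries the most channel genes, 18, and none held a region, where the shares of its own other genes by span class would give 4.05. Chromosome 8 has the highest region density of the autosomes, 3.65 per Mb, and none of its 5 channel genes, Kcnu1, Kcnn1, Cacna1a, Kcng4 and Kcnk1, held one, where the same reckoning gives 1.33. On chromosome 1, the next densest at 2.54 per Mb, 3 of 12 held one (Asic4, Cacna1e and Kcnh1), where it gives 4.07. On chromosome 15 it was 3 of 11 (Kcns2, Cacng2 and Asic1), where it gives 1.91.

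The count depended on the limit of 10 kb. Kcnk3, Kcnk16, Kcnj5, Scn11a, Asic1 and Kcnc1 had their nearest region between 5.42 and 8.60 kb, and with a limit of 5 kb the count was 15. The last gene inside 10 kb was Kcnc1 at 8.60 kb, and the first outside were Cacng6 at 13.3 kb, Kcnj10 at 16.3 kb and Kcnj4 at 17.8 kb. In all, 16 genes, these 3 included, had their nearest region between 10 and 50 kb. Over the 115 genes without a region in the window the median distance to the nearest was 210 kb, and 23 genes had none within 500 kb.

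**Figure D5:**
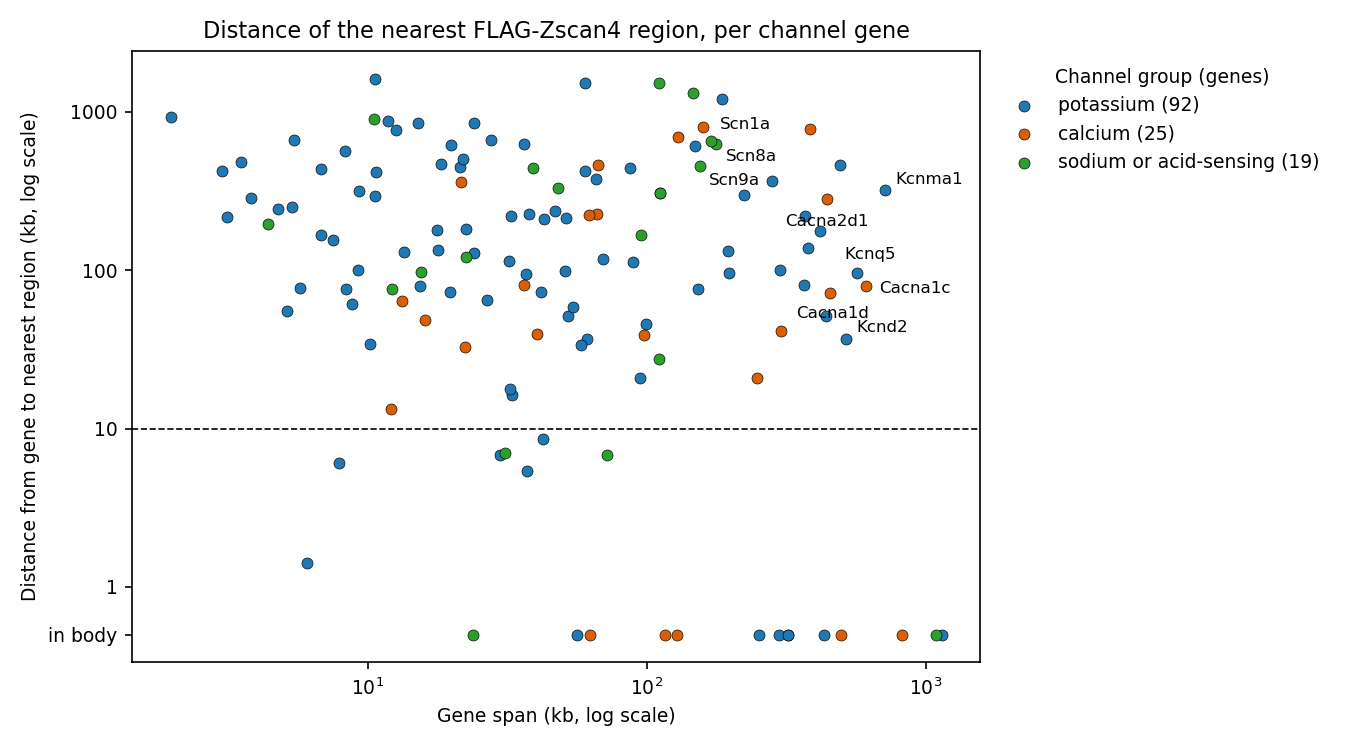
Distance from each of the 136 channel genes to the nearest FLAG-Zscan4 region midpoint (y axis, kb, log scale, with genes that hold a midpoint in the body at the bottom) against gene span (x axis, kb, log scale). Colours give potassium (92), calcium (25) and sodium or acid-sensing genes (19), the dashed line is the 10 kb limit, and the longest genes without a region are named; Kcnma1 at 713 kb lies 319 kb from its nearest region.

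Other ion channel genes were counted in the same way, from lists made by symbol. Of 54 genes of the Hcn, Trp, Cng, Ryr, Itpr, Catsper, Nalcn and Tpcn families, further cation channels of membrane and calcium stores, 9 held a region beside 11.5 from the span classes, with the highest scores at Cnga3 (152), Catspere1 (130) and Trpc4 (93). Of 17 ionotropic glutamate receptor genes 3 did, beside 5.50 (Grid1 with 49, Grin2a with 35 and Grik3 with 18). Of 35 GABA-A, glycine and nicotinic receptor genes 8 did, beside 6.05 (Gabrr1 with 86, Gabrg1 with 63 and Chrna2 with 54). Of 21 chloride channel and anoctamin genes 6 did, beside 3.95 (Ano3 with 66, Best3 with 47 and Ano10 with 42). The shares ran from 16.7% to 28.6%, beside 15.4% for the 136 channel genes, with intervals that overlap, and their highest score, 152, was below those of Asic4, Kcnab1 and Asic1.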

How the data were processed

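Per the submitters' processing notes, the tools were MACS2, Bowtie2, cutadapt and deepTools, on build mm10, with versions and peak thresholds not stated. The score was deposited by the authors as 1 whole number per region, and the deposited positions, which count from 0, are printed here counted from 1. Peaks came from 1 immunoprecipitation and were not pooled, as far as the labels say.

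Genes came from a RefSeq table of GRCm38.p6, which shares its primary chromosome coordinates with mm10. Protein-coding genes on chromosomes 1 to 19 were used, without 105 whose listed start is below 3 Mb, in the gap at the beginning of each chromosome. The table gives no exons, so exons and introns were not analysed here. A region counted at a gene when its midpoint lay in the body or within 10 kb. Numbers from genes of like span summed the shares of other protein-coding genes in span classes with edges at 10, 30, 100 and 300 kb. Chromosome densities divide the number of regions by the distance between the outermost genes or regions. Intervals are 95% Wilson or exact Poisson intervals (SciPy 1.17.1, Python 3.11.15). That of the median highest score is a 95% binomial interval of the ranked values. Counting was tested on simulated data.

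The genes, lists and alternatives were chosen with earlier results of these data known. Every gene with a region was named with all its regions, as were the 3 longest potassium, calcium and sodium or acid-sensing genes without one and the 3 highest-scoring genes of each other list. Further genes without a region, the neighbours at the 10 kb limit and the words searched in start windows were added after values were seen.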

Additional observations from a re-analysis of the deposited data

How the results depend on the processing

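The count of 21 channel genes with a region stayed within 1.5 times under 7 of 9 alternatives. It was 37 with 50 kb on either side and 10 with only the 1252 regions of highest score. The ratio to the number from genes of like span, 0.769, was below 1 in 11 of 12 alternatives, with a lowest value of 0.614 (5 kb on either side). It was 0.764 against the 200 genes nearest in span and 0.820 without chromosomes 1 and 8. With only the 2510 regions of highest score it was 0.989, and with the 1252 highest 1.38. The lower count was therefore not seen among the highest scores, and the cause was not tested. Intervals were not computed for the ratios of the alternatives, so counting error was judged only with 10 kb on either side and all regions. The median highest score of 49 stayed between 38.5 and 69 except with the 1252 highest, where it was 115.5 because weaker regions were left out. Leaving out regions in the body of another gene, an alternative chosen after the data were seen, gave 16 genes, a ratio of 0.660 and a median of 38.5. No paired analysis was possible because the list holds 1 sample. Without read counts, the depth behind each region and the weakest detectable region are not known.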
